A study of Mus musculus with 59 samples.

Results

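Livers of mice that drank water with 100 ppb arsenite for 5 weeks (4 samples) were compared with livers of mice that drank water without added arsenite (5 samples), all on AIN-76A, a diet made from purified ingredients. The comparison takes every array whose title gives that diet with 100 ppb in drinking water, or that diet with the 5-week control, which is 9 of the 59 arrays of the series. The mice were male C57BL/6, 6 weeks of age when the study began, and were kept 2 weeks to acclimatise first. The exposed arrays carry the replicate letters A, B, C and D, and the control arrays B, C, D, E and F. The labels call the samples biological replicates and do not say whether each is 1 mouse. No transgene or deletion is involved.

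Values from other groups of the same strain, sex and age stand beside this comparison where they bear on it. On AIN-76A, 5 samples are from mice given 10 ppb arsenite in water and 5 from mice given 10 ppb in food for 5 weeks. On LRD-5001, a natural-ingredient laboratory chow, 5 samples had 100 ppb in water and 5 had none. In a separate experiment on AIN-76A, groups of 5 samples are from mice injected with saline, with arsenite at 1 mg/kg or with dexamethasone, a synthetic glucocorticoid, at 1 mg/kg, whose livers were taken 8 hours later. Each array reports the log2 expression of 45037 probe sets, which are groups of short probes for 1 transcript, after 64 control probe sets were left out.

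Arsenite is trivalent inorganic arsenic. It binds thiol groups of proteins, and the liver takes it up and methylates it for excretion. The fed liver turns sugar into fat through the transcription factors SREBP-1c, which follows insulin, and ChREBP, which follows glucose and fructose. In fasting it burns fatty acids instead, a programme led by PPAR alpha that needs carnitine to carry long-chain fatty acids into mitochondria. Glucocorticoid hormone and the cytokines IL-6 and IL-1 drive the liver's stress and acute phase programmes, which include the metal-binding metallothioneins.

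All 9 arrays carried the markers of liver. The mean log2 level of 9 hepatocyte markers lay between 12.46 and 12.64, and Alb, the albumin gene, lay between 13.60 and 13.76 in every array. Array medians ran from 2.44 to 2.59 and upper quartiles from 3.75 in control C to 4.22 in control E. The SD over 18193 genes, by 1 probe set each, between an array and the mean of the controls (the other controls, for a control array) was read next. It was 0.32, 0.53, 0.45 and 0.45 in exposed A, B, C and D. In controls B, C, D, E and F it was 0.34, 0.61, 0.28, 0.30 and 0.27. Control C therefore lay as far from the other controls as any exposed array did. Exposed D and control C also had the lowest scores of their groups (-0.22 and -0.30) in a principal component analysis of within-group deviations. It took all 59 arrays of 12 groups and the probe sets brighter than the median, and its first component carried 27.6% of the variance. The lowest-scoring array of each group is called an array lying apart below, by rank alone and without a threshold. The median over 18193 genes of the SD between arrays of a group was 0.25 in the exposed group and 0.23 in its controls, against 0.18 to 0.22 in the other 6 groups. The closest pair among the 9 differed with an SD of 0.25 over all 45037 probe sets, so none was a copy of another.

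Promoter sequences are shown for genes on which the results turn. They are the 250 bases before the annotated start in RefSeq, build GRCm38.p6, written 5′ to 3′ on the gene's strand. Slc22a5 and Hacd3 are called genes with 1 start in that table. Khk (fructose use), Socs3 (cytokine signalling) and Mt2 (metal binding) are single members of gene lists described further on. Their windows do not stand for those of the other members.
Slc22a5: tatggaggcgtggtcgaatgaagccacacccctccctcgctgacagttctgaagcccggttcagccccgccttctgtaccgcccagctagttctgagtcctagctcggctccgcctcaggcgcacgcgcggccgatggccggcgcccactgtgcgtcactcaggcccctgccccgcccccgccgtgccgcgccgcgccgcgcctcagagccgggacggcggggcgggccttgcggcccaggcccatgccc
Hacd3: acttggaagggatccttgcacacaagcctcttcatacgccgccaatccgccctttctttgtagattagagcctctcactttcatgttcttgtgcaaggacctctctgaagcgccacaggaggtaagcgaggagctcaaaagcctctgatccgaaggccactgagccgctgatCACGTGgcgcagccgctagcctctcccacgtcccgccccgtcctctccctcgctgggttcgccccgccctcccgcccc
Khk: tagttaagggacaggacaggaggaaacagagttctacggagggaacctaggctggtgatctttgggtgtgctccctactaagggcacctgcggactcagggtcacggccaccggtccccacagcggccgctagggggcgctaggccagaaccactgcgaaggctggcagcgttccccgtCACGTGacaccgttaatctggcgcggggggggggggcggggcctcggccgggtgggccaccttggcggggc
Socs3: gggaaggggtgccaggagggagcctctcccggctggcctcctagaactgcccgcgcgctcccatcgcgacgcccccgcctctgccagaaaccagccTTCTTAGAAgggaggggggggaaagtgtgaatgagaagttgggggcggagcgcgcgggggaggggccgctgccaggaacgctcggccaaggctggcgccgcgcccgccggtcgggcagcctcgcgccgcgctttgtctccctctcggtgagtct
Mt2: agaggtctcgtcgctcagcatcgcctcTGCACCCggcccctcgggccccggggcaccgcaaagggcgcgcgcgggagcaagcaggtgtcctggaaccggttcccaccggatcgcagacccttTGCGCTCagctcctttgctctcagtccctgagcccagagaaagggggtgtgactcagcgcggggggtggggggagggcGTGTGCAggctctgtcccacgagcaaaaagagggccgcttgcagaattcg
These windows lie at chr11:53891704-53891953 (minus strand), chr9:65021718-65021967 (minus strand), chr5:30921309-30921558 (plus strand), chr11:117969367-117969616 (minus strand) and chr8:94172368-94172617 (plus strand), in the order shown. Each ends at the base before the gene's start. Capitals mark the motif CACGTG, the E-box type bound by ChREBP and related factors, in Hacd3 and Khk. In Socs3 they mark TTCNNNGAA, the STAT type, and in Mt2 TGCGCNC or TGCACNC, the core of the metal response element. All motifs were searched on both strands. Among 22855 promoters of genes with 1 listed start, 5.92% hold CACGTG, 7.23% hold TTCNNNGAA and 20.8% hold a metal response core in the same window. CACGTG was in 1 of 6 promoters of the sugar use list and 2 of 14 of the lipid synthesis list. TTCNNNGAA was in 3 of 13 of the IL-6 and IL-1 list. A metal response core was in 5 of 10 of the metallothionein and heat shock list. Hacd3 also holds 1 TGCACNC, which is not marked. Slc22a5 holds none of these, nor the direct repeat of the PPAR alpha type, which 0.35% of promoters hold. A match describes letters and does not show binding, and no match says only that these letters are not in the window.

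The first question was which genes differed between exposed and control livers. A probe set was called at an adjusted p under 0.05, from limma with Benjamini-Hochberg adjustment over all 45037 probe sets. With 100 ppb, Slc11a2, Hacd3 and Slc22a5 rose and Arhgap26 fell, which are the 4 called probe sets (0.00888% of those tested, 0.00666% higher and 0.00222% lower). All 4 separated the groups without overlap, which 1.69% of all probe sets did (761). At an unadjusted p under 0.05 there were 3996 probe sets (8.87%), 2141 higher and 1855 lower in exposed livers.

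Slc22a5 encodes OCTN2, the carnitine transporter of the cell surface. Its log2 level was 5.40, 7.32, 6.65 and 6.12 in exposed A, B, C and D, and 5.20, 4.96, 5.16, 4.83 and 4.47 in controls B, C, D, E and F. Every exposed array lay above every control, with A only just above control B. The difference was 1.45 on the log2 scale, or 2.73-fold (SE 0.27, adjusted p = 0.0485). The other Slc22a5 probe set, dimmer, differed by 0.65 (SE 0.21, adjusted p = 0.271).

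Slc11a2 encodes DMT1, which carries iron and other divalent metals. Its called probe set read 3.15, 3.71, 3.41 and 3.66 in exposed A to D, and 2.71, 2.68, 2.93, 2.69 and 2.86 in controls B to F. These levels are low, and every exposed array lay above the highest control. The difference was 0.70 (SE 0.10, adjusted p = 0.00176). The other 3 Slc11a2 probe sets differed by 0.61 to 0.90 in the same direction, with adjusted p between 0.119 and 0.602. In the brightest of them, exposed A (4.21) and D (4.37) lay within or below the control range of 4.30 to 5.00, while B (6.31) and C (6.10) lay above it.

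Hacd3 encodes a 3-hydroxyacyl-CoA dehydratase, a step in lengthening very long fatty acids. Its called probe set read 9.59, 10.50, 10.16 and 9.84 in exposed A to D against 9.28 to 9.54 in controls, a difference of 0.59 (SE 0.11, adjusted p = 0.0485). Its brightest probe set differed by 0.49 (SE 0.15, adjusted p = 0.26) and the other by 0.11 (SE 0.34, adjusted p = 0.966).

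Arhgap26 encodes a GTPase-activating protein. It read 5.85, 3.63, 4.27 and 5.50 in exposed A to D and 7.03, 6.30, 7.25, 5.94 and 7.19 in controls B to F. B and C were far below all controls, and A was only just below control E. The difference was -1.93 (SE 0.36, adjusted p = 0.0485). The other 3 Arhgap26 probe sets were dim, at 2.15 to 2.83 in controls, and differed by 0.24, -0.24 and -0.34.

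**Figure D1:**
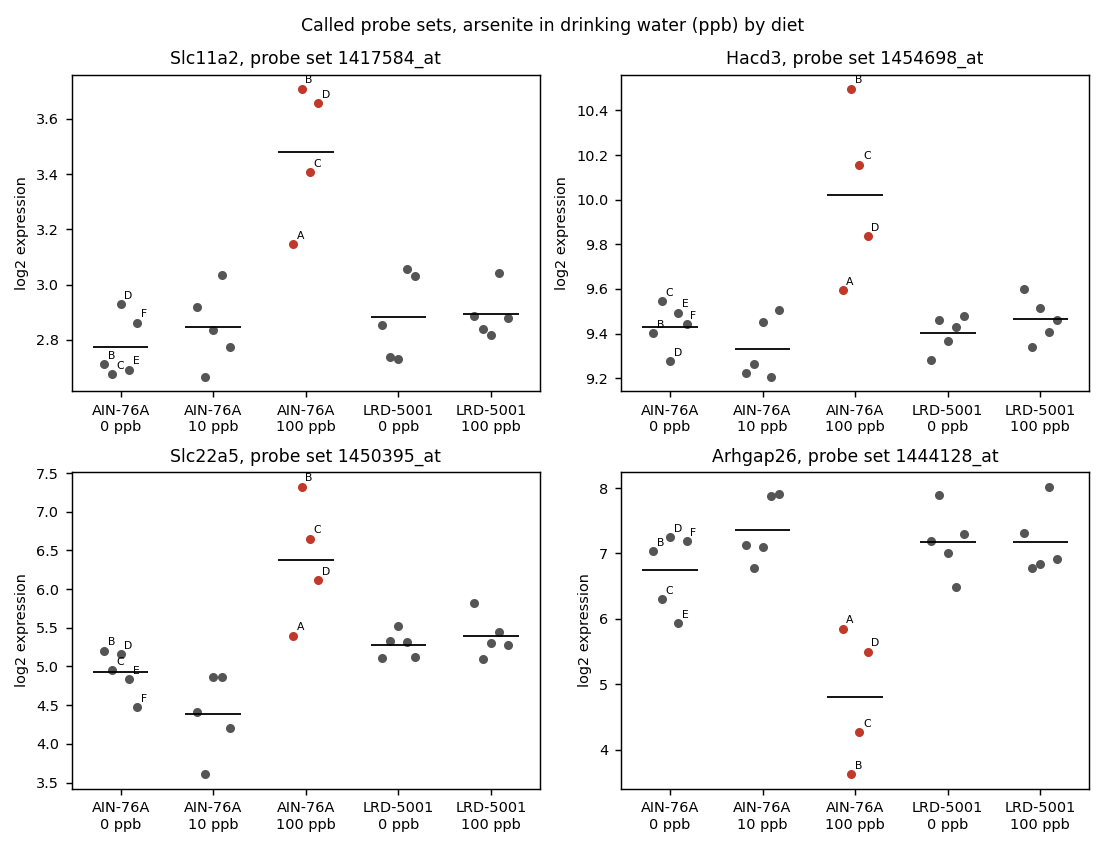
Log2 expression (vertical axes) of the 4 called probe sets in each array (points) of 5 groups by diet and arsenite concentration in water, with group means as lines and replicate letters for the 2 groups compared. The 4 exposed arrays on AIN-76A (red) lie outside the range of the 5 controls on that diet in each panel, and exposed A is the nearest to it for all 4.

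These calls rest on few arrays and on a spread estimated over all 39 arrays exposed for 5 weeks. With only the 9 arrays compared, limma called 0 probe sets (2269 at an unadjusted p under 0.05). Without exposed B it also called 0 (3687 at an unadjusted p under 0.05), and without control D, E or F the count was 1, 2 and 1. Without exposed A it was 572, without exposed C 9, without exposed D 89, and without control C 92. Slc11a2 lost its call in 1 of these 9 fits, without exposed B (adjusted p = 0.0503). Hacd3 lost its call without exposed B or C or without control B, D, E or F (adjusted p = 0.0675 to 0.203). Slc22a5 lost its call without exposed B or C or without control D, E or F (adjusted p = 0.0716 to 0.203), and Arhgap26 without exposed B or C or without control B, D or F (adjusted p = 0.0764 to 0.203). A two-sided exact permutation test of 4 against 5 arrays gave p = 0.00794 for each, which is the smallest that this design allows. The 4 probe sets had been picked on the same arrays, so this is no separate support.

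**Figure D2:**
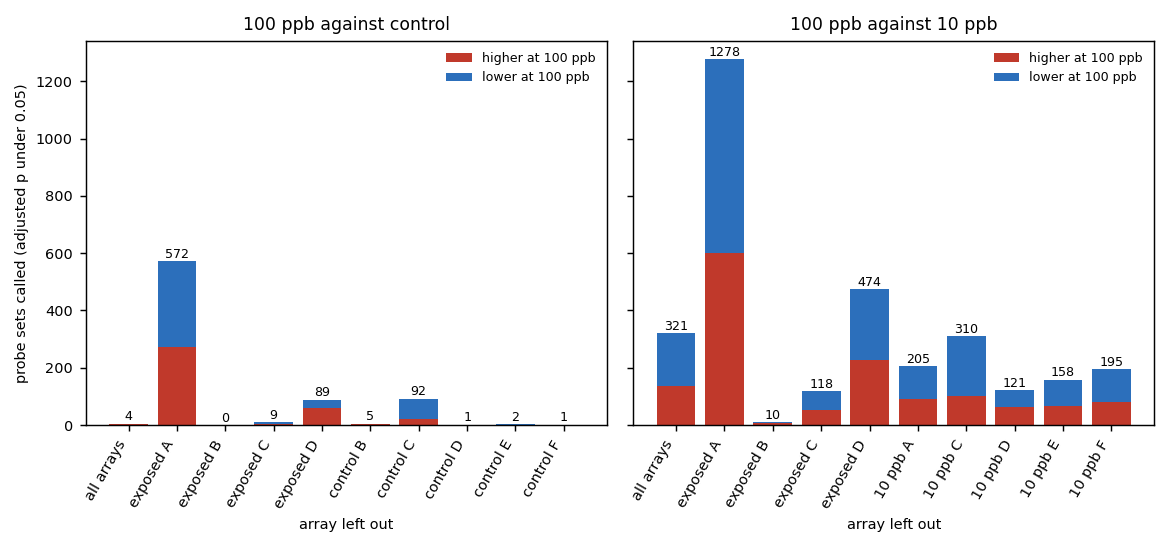
Number of probe sets called (vertical axis, adjusted p under 0.05) with all arrays and with 1 array left out, for 100 ppb against control (left) and against 10 ppb in water (right) on AIN-76A, split by direction. The count against control moves from 0 without exposed B to 572 without exposed A.

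The next question was how pathways of lipid and sugar use stood. Lists of genes were read by 1 probe set per gene, the brightest, and are given by counts and medians beside the same values for 18193 genes. Over all genes, 5.44% were higher and 4.97% lower in exposed livers at an unadjusted p under 0.05, 0.011% were called, 1.66% had arrays that did not overlap, and the median difference was 0.00. The probe sets of Socs3, Saa2 and Pim3 carry the suffix _x_at, and those of Mt1, Cxcl1, S100a8 and Gstm3 the suffix _s_at, which mark probe sets that may also bind related transcripts. In bulk liver, fewer cells of a type and less RNA per cell cannot be told apart.

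Genes that bring fatty acids into mitochondria had mostly higher values in exposed livers. Of 9 measured genes of carnitine transport and acyl transfer, Slc22a5 was called and 4 were higher at an unadjusted p under 0.05, none lower, with a list median of 0.25. Slc25a20, the carrier that exchanges carnitine and acylcarnitine across the inner mitochondrial membrane, read 9.08, 9.40, 9.40 and 9.10 in exposed A to D and 8.99, 8.17, 8.77, 8.26 and 8.16 in controls B to F. The groups did not overlap, although exposed A and D were close to control B. The difference was 0.78 (SE 0.16, adjusted p = 0.0926). Of 17 genes of mitochondrial fatty acid oxidation, 15 had a positive difference and 8 an unadjusted p under 0.05, all higher, with a list median of 0.21. Among them, the acyl-CoA dehydrogenases Acadm and Acadl differed by 0.46 each (SE 0.13 and 0.14), Decr1, which handles unsaturated fatty acids, by 0.53 (SE 0.16), and Cpt2, the carnitine acyltransferase of the inner membrane, by 0.47 (SE 0.17). None passed (adjusted p = 0.19 to 0.36), and for each of these 4 genes control C had the lowest or second lowest value of the 9 arrays. Without control C the median of the oxidation list was 0.15, and that of the carnitine list 0.13. These lists overlap in their genes, so their counts and medians are not separate.

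Targets of PPAR alpha gave a mixed picture. Cyp4a14, a fatty acid omega-hydroxylase, read 2.62, 6.43, 8.85 and 3.12 in exposed A to D and 1.90 to 2.22 in controls. Exposed B and C stood far above controls, and A and D only just above. The difference was 3.19 (SE 0.72, adjusted p = 0.103). Cyp4a31, a gene of the same family, read 3.28, 4.64, 6.43 and 2.47 against 2.13 to 3.62. Eci2, an enoyl-CoA isomerase of peroxisomes and mitochondria, differed by 0.97 (SE 0.21, adjusted p = 0.094), with B and C at 9.49 and 9.56 and controls at 7.81 to 8.55. Over the 20 measured genes of omega oxidation and other PPAR alpha targets, 2 were higher and 0 lower at an unadjusted p under 0.05 (median 0.14). Over 21 genes of peroxisomal oxidation, 6 were higher and 3 lower (median 0.17). The peroxisomal median changed sign without exposed A (-0.08), exposed C (-0.04) or control C (-0.07), and without the arrays lying apart (-0.06). Nudt19 and Nudt7, peroxisomal hydrolases that split coenzyme A, went the other way. Nudt19 read 6.42, 6.16, 6.74 and 5.85 in exposed A to D, all below the controls at 6.83 to 7.21 (difference -0.76, SE 0.16, adjusted p = 0.0926). Nudt7 differed by -0.67 (SE 0.15, adjusted p = 0.103).

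Genes that make fat, taken as a list, were lowest in exposed B and C. All 24 measured genes of fatty acid and triglyceride synthesis had a negative difference, 16 with an unadjusted p under 0.05, and the list median was -0.66. None was called. The mean log2 level of the list was 9.02, 7.37, 7.56 and 8.13 in exposed A, B, C and D, and 8.96, 8.10, 8.86, 8.90 and 9.11 in controls B, C, D, E and F. Exposed B and C were below all controls, D was close to control C, and A was among the controls. Acly, which makes cytosolic acetyl-CoA from citrate, read 10.47, 7.50, 8.12 and 8.31 against 9.31 to 10.92 (difference -1.51, SE 0.37, adjusted p = 0.119). Fasn, fatty acid synthase, read 10.59, 7.55, 7.83 and 9.19 against 9.16 to 10.76 (difference -1.26, SE 0.42, adjusted p = 0.292). Thrsp, a factor that goes with lipogenesis, read 12.01, 8.08, 7.16 and 9.96 against 10.25 to 12.09 (difference -1.96, SE 0.57, adjusted p = 0.194). Srebf1, which encodes SREBP-1c, read 8.99, 5.64, 7.03 and 8.68 against 8.14 to 9.33 (difference -1.13, SE 0.44). The desaturase Scd1 was at 13.32 and 12.99 in A and D and at 11.88 and 11.58 in B and C, with controls at 12.89 to 13.22.

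For sugar uptake and use the 4 exposed arrays stood in the same order as for lipid synthesis, with list levels of 8.66, 7.11, 7.73 and 8.15 in A to D and 8.07 to 8.84 in controls. Of 13 measured genes of this list, 12 had a negative difference and 9 an unadjusted p under 0.05, all lower, with a median of -0.64. Khk, ketohexokinase, which starts fructose use and whose window above holds an E-box, read 10.37, 8.85, 9.02 and 9.88 in exposed A to D and 10.20 to 10.72 in controls. Its exposed A lay among the controls and the other 3 below all of them (difference -0.90, SE 0.19, adjusted p = 0.0926). Pklr, the liver pyruvate kinase and a textbook ChREBP target, read 8.85, 4.42, 6.22 and 7.92 against 7.98 to 9.13 (difference -1.66, SE 0.49). Slc2a2, the glucose transporter GLUT2, read 10.11, 5.79, 8.54 and 8.97 against 8.80 to 10.59 (difference -1.50, SE 0.44). Of the 6 genes of this list with 1 listed promoter, Khk alone held CACGTG in the 250 bases. With exposed A left out, where 1.97% of all genes were called, 10 of 24 synthesis genes and 9 of 13 sugar genes were called, all lower. The medians were then -0.99 and -0.85, without exposed B -0.44 and -0.42, and without exposed C -0.47 and -0.45. Without exposed B no probe set was called. Both medians stayed below 0 with any 1 of the 9 arrays left out. Of the exposed arrays, A lay nearest the controls (SD 0.32 against 0.45 to 0.53). Calls gained without it, here and below, are therefore no separate support.

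Glucocorticoid targets, taken as a list, were high in exposed B and C. Of 23 measured genes, 8 were higher and 1 lower at an unadjusted p under 0.05, 19 had a positive difference and none was called (median 0.42). The list level was 6.87, 8.98, 8.84 and 7.73 in exposed A to D against 6.70 to 7.63 in controls. Fkbp5, which encodes a co-chaperone of the glucocorticoid receptor, read 5.17, 8.81, 8.55 and 5.86 against 4.91 to 6.22. Its difference was 1.70 (SE 0.45, adjusted p = 0.138). With dexamethasone 8 hours after injection, Fkbp5 rose by 2.98 (SE 0.55, adjusted p = 0.0056), in a contrast that called 2.55% of all genes. Of the 23 targets, dexamethasone called 2 higher and 1 lower (median 0.25). The dexamethasone medians of the lipid synthesis, sugar use and IL-6 lists were 0.34, 0.30 and -0.20, of opposite sign to those at 100 ppb. Cdkn1a, which encodes the cell cycle inhibitor p21, read 3.78, 8.42, 7.24 and 5.41 against 3.16 to 4.94 (difference 1.97, SE 0.48, adjusted p = 0.114). With dexamethasone it differed by 2.23 (SE 0.58, adjusted p = 0.059). Tat, a textbook glucocorticoid target, read 11.06, 11.77, 11.73 and 10.32 against 10.71 to 11.41 (difference 0.14, SE 0.25), and G6pc, of glucose release, differed by -1.27 (SE 0.45). So values within the list went both ways. Of 19 genes of growth arrest and the p53 response, which include Cdkn1a, 5 were higher and 1 lower at an unadjusted p under 0.05, none was called, and the only 2 without overlap were lower (median 0.17). Among the higher ones, Btg2, an anti-proliferative factor, read 4.59, 7.41, 6.79 and 5.78 against 3.55 to 4.97 (difference 1.69, SE 0.44), and Gadd45b, a stress-induced factor, differed by 0.68 (SE 0.20). With exposed A left out, where 1.97% of all genes were called, 7 glucocorticoid targets were called higher and 1 lower, with a median of 0.80. Without exposed B no probe set was called, and without control C the median of the glucocorticoid list was 0.31.

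Nfil3, a transcriptional repressor tied to the circadian clock, read 5.98, 7.48, 7.55 and 7.39 in exposed A to D and 5.68 to 6.36 in controls. Exposed B, C and D stood together above every control (difference 1.11, SE 0.25, adjusted p = 0.103). Pim3, a serine/threonine kinase, read 8.10, 10.63, 9.21 and 8.41 against 7.17 to 8.06, so that the groups did not overlap (difference 1.61, SE 0.33, adjusted p = 0.0926). Its relative Pim1 read 6.71, 6.71, 6.32 and 7.90 against 5.43 to 6.23 (difference 1.05, SE 0.29, adjusted p = 0.162). The forkhead factor Foxn3 read 5.74, 5.95, 6.17 and 5.58 against 6.61 to 6.97. All 4 exposed arrays, A included, were clearly below the lowest control (difference -0.90, SE 0.19, adjusted p = 0.0926).

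Signalling genes of IL-6, IL-1 and related cytokines were high in exposed B, C and D and not in A. All 22 measured genes had a positive difference, 14 with an unadjusted p under 0.05, and the list median was 0.73. None was called, against 0.011% of all genes. The list level was 4.19, 6.52, 6.19 and 5.42 in exposed A to D, and 4.28, 4.94, 4.48, 4.76 and 4.98 in controls B to F. Exposed A had the lowest level of the 9 arrays and the other 3 exposed arrays the highest. The SD of this level was 1.04 in the exposed group and 0.10 to 0.30 in the other 7 groups exposed for 5 weeks. Socs3, the feedback inhibitor of IL-6 signalling, read 2.72, 9.46, 8.84 and 7.78 against 3.49 to 7.22, where the highest control was C (difference 2.35, SE 0.88, adjusted p = 0.376). Nfkb2, an NF-kappaB subunit, read 3.94, 5.17, 4.57 and 5.38 against 3.40 to 4.01 (difference 0.96, SE 0.22, adjusted p = 0.106). Il1rn, the IL-1 receptor antagonist, read 4.14, 7.82, 5.59 and 4.22 against 3.63 to 4.50, and Cd14, a receptor for bacterial lipopolysaccharide, read 2.95, 8.60, 5.99 and 3.08 against 2.93 to 3.73. For these last 2 genes exposed B and C alone lay above the controls. With exposed A left out, where 1.97% of all genes were called, 13 of the 22 were called, all higher, with a median of 1.13. Without exposed B, where no probe set was called, the median was 0.39, and without exposed C 0.43. Read as the mean of all probe sets of each gene, it was 0.41 with every array in the fit.

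Genes of acute phase proteins varied widely among controls as well. Of 23 measured genes, 21 had a positive difference, with a median of 0.34, and 0 had an unadjusted p under 0.05. The median was 0.64 without exposed A, 0.14 without exposed B and 0.14 without control B. The list level was 9.95, 12.31, 12.22 and 11.36 in exposed A to D and 9.58, 11.97, 9.84, 11.95 and 10.99 in controls B to F. Controls C and E thus reached levels near those of exposed B and C. Saa2, serum amyloid A, read 8.96, 13.14, 13.33 and 12.69 in exposed A to D and 6.63, 13.26, 7.02, 13.03 and 11.39 in controls B to F. A2m, a protease inhibitor and acute phase protein, did not follow this spread among controls. It read 2.58, 9.39, 8.41 and 2.28 in exposed A to D and 2.14 to 2.83 in controls (difference 3.22, SE 0.75, adjusted p = 0.106). Exposed B and C were the only ones of the 9 arrays above 2.83.

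Metallothioneins ranged widely in both groups. Mt2, whose promoter window holds 3 metal response cores on either strand, read 6.16, 12.36, 12.38 and 10.87 in exposed A to D and 3.72, 11.77, 3.48, 7.01 and 8.56 in controls B to F. Mt1 read 7.26, 12.88, 12.97 and 12.06 against 5.34, 12.49, 5.03, 8.51 and 9.14. Control C lay below exposed B and C but above exposed D for both genes, so the groups overlapped. The differences were 3.53 (SE 1.24) for Mt2 and 3.19 (SE 1.11) for Mt1, and neither passed (adjusted p = 0.334 and 0.332). Over 17 genes of metallothionein, heat shock and metal response, 4 were higher and 0 lower at an unadjusted p under 0.05 (median 0.26, and 0.05 without control C). Hmox1, heme oxygenase and a classical arsenite-induced gene, read 4.41, 6.93, 5.30 and 6.04 against 3.91 to 5.02 (difference 1.15, SE 0.32, adjusted p = 0.175). Slc40a1, the iron exporter ferroportin, read 8.22, 7.41, 7.98 and 7.56, all below the controls at 8.29 to 8.63 (difference -0.71, SE 0.24, adjusted p = 0.314). Over 15 genes of iron handling, 2 were higher and 1 lower, with a median of 0.07 (-0.01 without the arrays lying apart).

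**Figure D3:**
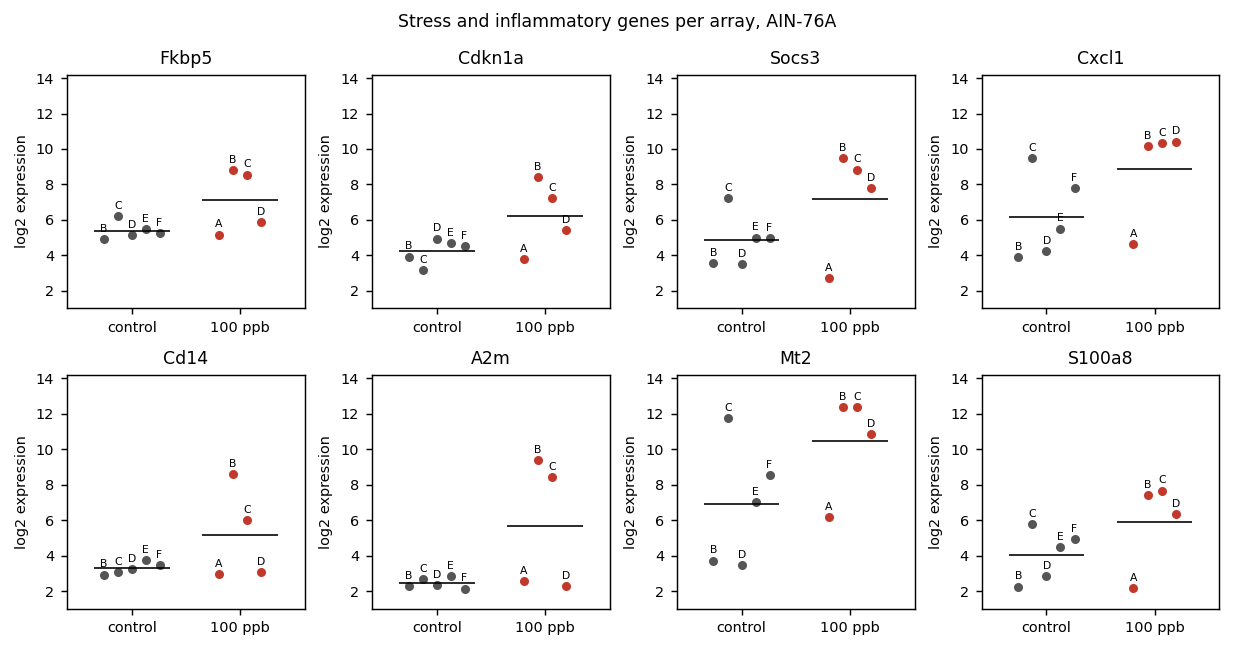
Log2 expression (vertical axes) of 8 stress and inflammatory genes in each control and exposed array on AIN-76A, with replicate letters and group means as lines. Exposed B and C are high for all 8 genes, exposed A lies within or below the control range, and control C is near the high exposed arrays for Cxcl1 and Mt2.

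Markers of other cell types were read beside these genes. Neutrophil markers followed the inflammatory genes. Of 13 measured, 7 were higher and 0 lower at an unadjusted p under 0.05 (median 0.33), and the list level was 2.90, 4.39, 4.22 and 3.61 in exposed A to D against 2.59, 3.78, 2.69, 3.41 and 3.37 in controls B to F. S100a8 read 2.15, 7.42, 7.67 and 6.35 against 2.25 to 5.78, and its partner S100a9 differed by 1.75 (SE 0.62). The chemokine Cxcl1, which draws neutrophils, read 4.65, 10.15, 10.34 and 10.42 against 3.91, 9.46, 4.24, 5.50 and 7.79. Kupffer cell and macrophage markers were not higher. Of 13 measured, 3 were lower and 0 higher (median -0.37), among them Clec4f (-0.41, SE 0.19) and Cd5l (-0.51, SE 0.21). The list level was 6.39, 6.65, 6.49 and 6.74 in exposed A to D. In controls B to F it was 6.32, 7.08, 6.40, 7.37 and 6.93, so every exposed array lay within the control range. MHC class II genes had a median of -0.27 over 6 genes (-0.49 without exposed A, -0.10 without exposed B or C, -0.71 without control C and -0.83 without the arrays lying apart), with levels of 4.23 and 4.12 in exposed B and C and 4.06 in control C, against 5.15 to 5.57 in the other 6 arrays. The medians of T and NK cells, B cells, sinusoidal endothelium, stellate cells and bile duct cells lay between -0.06 and 0.03, and those of the first 4 changed sign in at least 1 alternative, centring on the upper quartile among them for T and NK cells, B cells and stellate cells. Red cell markers were highest in exposed D, at 4.44 against 3.14 to 3.99 in the other 8 arrays, and their median of 0.14 became -0.15 without it. The part of these cells in the differences above was not tested.

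Lists of other liver functions differed from one another. Of 17 genes of bile acid synthesis and transport, 8 were lower and 1 higher at an unadjusted p under 0.05 (median -0.20, from -0.09 without exposed C to -0.51 without exposed A). Cyp7a1, which sets the rate at which bile acids are made, read 6.97, 2.47, 2.95 and 6.95 against 5.17 to 7.93 (difference -1.71, SE 0.64, adjusted p = 0.376). Of 10 male-biased liver genes, 4 were lower (median -0.41, from -0.20 without exposed C to -0.63 without exposed A). Hsd3b5, a steroid dehydrogenase of male liver, read 11.00, 3.78, 5.92 and 10.66 against 10.18 to 11.38 (difference -3.07, SE 0.72, adjusted p = 0.106). Cyp1a2, a pericentral detoxifying cytochrome P450, read 11.08, 6.67, 6.64 and 10.52 against 9.88 to 10.65 (difference -1.48, SE 0.49). Over the 21 detoxifying P450 genes, 4 were lower and 1 higher (median -0.10, from -0.01 without control B to -0.17 without control E). For these 3 genes exposed A and D lay within the control range or, for exposed A in Cyp1a2, above it. With exposed A left out, where 1.97% of all genes were called, 5 of the 17 bile acid genes, 3 of the 10 male-biased genes and 3 of the 21 P450 genes were called, all lower. Without exposed B no probe set was called. Of 14 genes of apolipoproteins and lipid export, 3 were higher and 1 lower (median -0.05), with list levels of 11.71 and 11.78 in exposed B and C against 11.49 to 11.73 in controls. Of 16 genes of amino acid breakdown and the urea cycle, 3 were lower (median -0.03), and exposed B, at 9.68, lay within the control range of 9.65 to 9.84.

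Genes that handle arsenic had differences of both signs. Of 18 measured for uptake, reduction and methylation, 3 were higher and 5 lower at an unadjusted p under 0.05 (median -0.03, and 0.09 without exposed B). As3mt, the arsenic methyltransferase, read 5.66, 7.94, 8.07 and 6.27 against 6.42 to 7.01, so that the exposed arrays lay on both sides of the controls (difference 0.38, SE 0.30, adjusted p = 0.775). Gsto1, an omega glutathione transferase that reduces arsenic species, differed by -0.46 (SE 0.17, adjusted p = 0.37). Pnp, a purine phosphorylase that can reduce arsenate, differed by 0.65 (SE 0.20, adjusted p = 0.234). Ahcy, which clears the product of methyl transfer, read 11.27 to 11.33 in all exposed arrays against 10.91 to 11.23, a small difference of 0.24 (SE 0.08, adjusted p = 0.334) without overlap. Of 22 antioxidant genes linked to the factor Nrf2, 2 were higher and 6 lower (median -0.12). Gstm3, a mu glutathione transferase, read 7.93, 5.09, 5.28 and 6.61 against 7.25 to 7.91 (difference -1.37, SE 0.31, adjusted p = 0.106), and Gsta4 differed by -1.24 (SE 0.50).

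Further lists were read in the same way. Of 21 genes of the unfolded protein response, which answers misfolded protein in the endoplasmic reticulum, 18 had a positive difference and 2 were higher at an unadjusted p under 0.05 (median 0.26, from 0.04 without exposed C to 0.41 without exposed A). Of 21 respiratory chain genes, 18 had a negative difference and 4 were lower (median -0.24, and -0.13 without exposed C). Of 19 cell cycle genes, 4 were lower and 0 higher (median -0.18, and -0.05 without control E). Of 21 interferon-induced genes, 1 was higher and 1 lower (median -0.16). Of 18 genes of cholesterol synthesis and uptake, 1 was higher and 2 lower (median -0.08), and of 15 gluconeogenesis genes, 1 was lower (median -0.05). The signs of these last 2 medians turned without exposed A (0.04 and 0.02) and without exposed D (0.11 and 0.12), and that of the interferon list without exposed B (0.05).

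**Figure D4:**
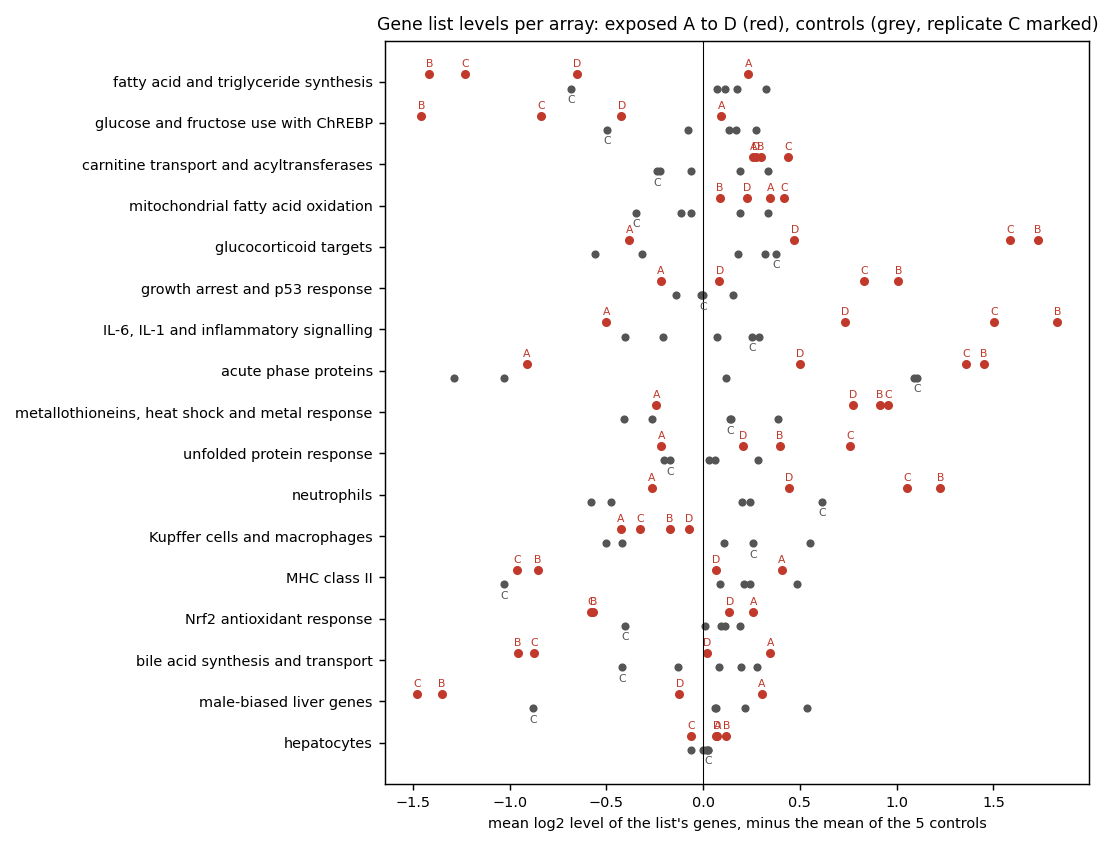
Mean log2 level of the genes of 17 lists in each array, minus the mean of the 5 controls (horizontal axis), for exposed A to D (red, lettered) and controls (grey, replicate C marked). Exposed B and C lie farthest from the controls for most lists, D lies between, A lies among the controls for most lists, and the hepatocyte list (levels of 12.46 to 12.64) stays near 0 in all 9 arrays.

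A further question was whether the 2 doses in water differed on the same diet. The exposed arrays were compared with 5 arrays at 10 ppb, in the same fit. This comparison shares the 4 exposed arrays with the one against controls and so is not independent of it. At 100 ppb 136 probe sets were called higher and 185 lower by limma, 321 in all (0.713%). With 1 probe set per gene, 0.445% of genes were called higher and 0.649% lower. All 4 probe sets called against control passed again. Slc22a5 was higher by 1.98 (SE 0.27, adjusted p = 0.00045), Slc11a2 by 0.63 (SE 0.10, adjusted p = 0.00251) and Hacd3 by 0.69 (SE 0.11, adjusted p = 0.00185), and Arhgap26 was lower by 2.55 (difference -2.55, SE 0.36, adjusted p = 0.000533). Of the 24 lipid synthesis genes, 8 were called lower. Among them were Acly (-1.99, SE 0.37, adjusted p = 0.0081) and Acss2, which makes acetyl-CoA from acetate (-1.98, SE 0.37, adjusted p = 0.00772). Of the 13 sugar genes, 7 were called lower. Among them were Khk (-1.08, SE 0.19, adjusted p = 0.00575), Pklr (-2.07, SE 0.49, adjusted p = 0.0342) and Slc2a2 (-2.10, SE 0.44, adjusted p = 0.0164).

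Other lists were read between the doses too. Of 22 IL-6 and IL-1 genes 2 were called higher at 100 ppb. Of 21 genes of the unfolded protein response 2 were called higher, and of 23 acute phase genes 0. At an unadjusted p under 0.05, 15, 12 and 11 genes of these lists were higher and 0 lower. Their medians were 0.76, 0.61 and 0.87. Over all genes, 6.42% were higher and 7.09% lower at that threshold. Of 13 neutrophil markers 4 were called higher. Of 23 glucocorticoid targets 4 were called higher. They were Fkbp5 (2.35, SE 0.45), Cdkn1a (2.46, SE 0.48) and the metallothioneins Mt1 (4.91, SE 1.11) and Mt2 (5.52, SE 1.24), with adjusted p from 0.00945 to 0.0276. Nfil3 was higher by 1.55 (SE 0.25, adjusted p = 0.00251), Hmox1 by 1.58 (SE 0.32, adjusted p = 0.013) and S100a8 by 2.66 (SE 0.67, adjusted p = 0.0476). Foxn3 was lower, with a difference of -1.25 (SE 0.19, adjusted p = 0.00167), and so was the water channel gene Aqp8 (-3.07, SE 0.54, adjusted p = 0.00575). Aqp8 read 8.71, 3.38, 5.09 and 6.42 in exposed A to D and 8.38 to 9.61 at 10 ppb. The count of called probe sets was 10 without exposed B, 118 without exposed C, 474 without D and 1278 without A, and between 121 and 310 without 1 array at 10 ppb. With only the 9 arrays of these 2 groups limma called 0 (2920 at an unadjusted p under 0.05).

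At 10 ppb itself no probe set was called against the controls by limma, in water (2178 at an unadjusted p under 0.05, 4.84%) or in food (1635, 3.63%). Those comparisons use the same control arrays. The medians of the lipid synthesis, sugar use, glucocorticoid and IL-6 lists at 10 ppb in water were 0.24, 0.21, -0.23 and -0.05, against -0.66, -0.64, 0.42 and 0.73 at 100 ppb. Slc22a5 lay between 3.61 and 4.87, and Arhgap26 between 6.77 and 7.91 in the 5 arrays at 10 ppb in water.

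The last question was whether the response differed by diet. On LRD-5001, 100 ppb in water against its own controls called 0 probe sets by limma (1055 at an unadjusted p under 0.05, 2.34%). The test of the difference between the diets' responses also called 0, with 2757 at an unadjusted p under 0.05 (6.12%), and the 4 probe sets had adjusted p of 0.326 for Slc11a2 and 0.56 for the other three. So a difference between the diets was not shown for any probe set. It was called for 62 probe sets without exposed A and for 0 without any other single array of the 4 groups. On LRD-5001 the 4 probe sets differed by 0.01 (SE 0.09) for Slc11a2, 0.06 (SE 0.10) for Hacd3, 0.11 (SE 0.25) for Slc22a5 and -0.001 (SE 0.33) for Arhgap26. The list medians there were -0.10 for lipid synthesis, -0.07 for sugar use, -0.02 for glucocorticoid targets and 0.01 for the IL-6 and IL-1 list. These arrays are independent of the 9. Of 1894 genes with an unadjusted p under 0.05 on AIN-76A, 932 (49.2%) had the same sign on LRD-5001, against 48% of all 18193 genes. The SD of the difference over all genes was 0.27 on AIN-76A and 0.15 on LRD-5001.

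Arsenite injected at 1 mg/kg called 0 probe sets by limma against saline (1414 at an unadjusted p under 0.05, 3.14%), in a fit of its own. At 8 hours after that injection Mt1 differed by -1.88 (SE 1.01), Fkbp5 by -1.05 (SE 0.55) and Hmox1 by 0.28 (SE 0.34), and the lipid synthesis list had a median of -0.01.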

How the data were processed

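Liver RNA of 59 samples was measured on Affymetrix arrays, 1 array per sample. Per the submitters' processing notes, the authors made the deposited table of log2 values with RMA, which corrects background, normalizes between arrays and summarises probes, and so compresses differences of dim probe sets. Which program ran it, and how, was not given in the sources used here. Raw scans were not used here. The deposited values were used as they are, after 64 control probe sets were left out of 45101. Gene names came from the platform annotation: 34945 probe sets have 1 symbol, 932 several and 9160 none, and 34741 of the first match the RefSeq table by gene identifier.

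limma 3.58.1 in R 4.3.3 fitted 1 mean per group to the 39 arrays of 8 groups exposed for 5 weeks (lmFit, eBayes, Benjamini-Hochberg over 45037 probe sets). The SE therefore pools the spread over 8 groups, while the exposed group varied most. The injected arrays (20) had a fit of their own. Each list gene was read by its brightest probe set over all 59 arrays, and a list level is the mean over genes. Some genes are members of more than 1 list. The members and lists were chosen with earlier results of these data known. Named genes were the called probe sets, the 30 genes of smallest p, the 12 largest differences in each direction without overlap, genes called at 100 against 10 ppb, and list members. The labels name no batches, and a p-value measures only the spread among these arrays, whose number limits the precision. The code was tested on simulated data.

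Alternatives were other sample sets, scalings, eBayes settings, array weights, a replicate block, each array left out and, for single genes, an exact two-sided permutation test of 4 against 5 arrays. Those without the arrays lying apart, or with them as a block, were chosen after seeing the data. They leave out, or mark, the lowest-scoring array in each of the 8 groups, not only exposed D and control C. The replicate letters did not pair the arrays: over letters B, C and D the correlation of deviations from the group means was -0.15, -0.16 and 0.06. Promoters came from RefSeq. Figures were drawn with matplotlib 3.10.9 in Python 3.11.15.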

Additional observations from a re-analysis of the deposited data

Results flagged for a closer look

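Single arrays stood far from the rest of their group by Dixon's test in 9 of 140 groups of values of genes and in 7 of 90 groups of list levels. Chance flags about 1 in 20 groups.

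Exposed A was the lowest of the 4 exposed arrays for Nfil3 (5.98, next 7.39), Cxcl1 (4.65, next 10.15), Saa2 (8.96, next 12.69) and Mt1 (7.26, next 12.06). It was also lowest for the level of the list of metallothioneins, heat shock and metal response (7.22, next 8.23). It was the highest exposed array for Alb (13.68, next 13.64), where the whole range is small.

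Control C was the lowest of the 5 controls for G6pc (9.13, next 10.40) and the highest for Gadd45b (3.79, next 3.17). Among list levels it was the lowest for fatty acid and triglyceride synthesis (8.10, next 8.86), gluconeogenesis (7.43, next 7.86), the growth hormone and IGF axis (6.89, next 7.29) and MHC class II (4.06, next 5.17). It was the highest for T and NK cells (2.95, next 2.73).

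Control B was the lowest control for Nfkb2 (3.40, next 3.86), control F the highest for As3mt (7.01, next 6.58) and control E the highest for the cell cycle list (3.99, next 3.43).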

How the results depend on the processing

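The 4 probe sets called against control became 0 with only the 9 arrays compared, with the 19 arrays on AIN-76A or with all 59 arrays. The count was 25 after quantile normalization, 35 with arrays centred on the upper quartile, 2 with an intensity trend in eBayes, 314 with array weights and 2 with 1 probe set per gene. With 1 array left out it ran from 0 to 572. The replicate letter as a block gave 1, although the letters did not pair the arrays. With the arrays apart (1 per group) as a block it was 83, and without them 661. The test between diets gave 0 in its other settings, but 18 with array weights, 26 without the arrays apart and 0 to 62 with 1 array left out. Against 10 ppb the count of 321 became 0 with the 9 arrays compared, 1 with the 19, 108 with all 59, 624 with array weights, 133 with the replicate block, 764 with the arrays apart as a block, 1109 without them, and 10 to 1278 with 1 array left out. Over the tested genes and these alternatives, the difference kept its sign and its side of the threshold 917 times, gained a call 162 times, lost it 36 times and never changed sign. By the exact permutation test, at an unadjusted p, 40 uncalled genes passed. The tested genes were picked on these same arrays by small p or lack of overlap. The kept signs and the permutation passes were therefore largely set in advance and are no separate support. The causes of the changed counts and calls were not tested, beyond the fewer arrays in some fits. Of the list medians, 626 moved by less than the spread between arrays and 4 by more, for the arsenic and hepatocyte lists. Leaving out 1 array seldom moves a median that far, least of all where the arrays of a group differ widely. Changes of sign, such as that of the peroxisomal list, are among the 626. This tally was therefore largely set in advance and does not show that the medians are stable. Centring on the upper quartile moved the median of all genes by 0.07, and quantile normalization by 0.01, so the sizes of small differences depend on scaling. Signals near 2 to 3 on the log2 scale are at the dim end of these arrays.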
